A study of Sus scrofa with 8 samples.

Results

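Complement is a cascade of plasma and tissue proteins that tags cells and microbes, calls in leukocytes and can punch holes in membranes. The messenger RNA of its components, receptors and regulators was followed here in the endometrium, the inner lining of the uterus, of pregnant and non-pregnant pigs on day 14. The members were 30 named complement genes, chosen by their pig symbols. Of these, 25 were matched to a transcript among the 21064 genes of the deposited tables, each by 1 transcript. C1R, C1S, C3AR1, CR2 and C1QBP had no match and were not analysed here.

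The study compared 4 pregnant gilts with 4 cyclic control gilts, each library holding RNA of 3 places along 1 uterine horn of 1 animal. All were prepuberal German Landrace females whose follicles were stimulated with 750 IU of PMSG and that received 500 IU of hCG 72 h later to time ovulation. The pregnant group was inseminated with Pietrain semen 24 h and 36 h after hCG, and the controls with the supernatant of spun semen from that boar. Pregnant tissue was cut from hyperemic areas at embryo attachment and control tissue from matching places, so pregnancy and the choice of zone cannot be told apart. Both groups carried the same hormone treatment, and neither stands for a natural cycle.

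Total counts per library ran from 28035007 to 41016150. Levels are given in CPM, read counts scaled to a common library size with TMM, and group values are means ± SD with n = 4. Log2 changes are pregnant over control ± SE from edgeR's quasi-likelihood test, with p-values adjusted by Benjamini-Hochberg over 18783 transcripts and a threshold of 0.05. The 7 listed genes of uterus and endometrium, among them ESR1, PGR and HOXA11, had reads in both groups. Their summed level was 357.7 to 495 CPM in controls and 356 to 529 CPM in pregnant animals. ACP5 gave most of this sum, at 269 ± 57.5 CPM in controls and 366 ± 72.6 CPM in pregnant animals. ESR1 fell by 1.33 ± 0.15 and MSX1 by 0.98 ± 0.18 on the log2 scale (edgeR, adjusted p = 0.000194 and 0.00266). Neither overlapped between the groups, and the other 5 genes did not pass. Conceptus markers were low in both groups, with 4 matched genes summing to 1.73 to 2.61 CPM in controls and 1.49 to 2.18 CPM in pregnant animals. Most of this sum was HSD17B1, at 1.58 ± 0.570 CPM in controls and 1.27 ± 0.352 CPM in pregnant animals. POU5F1 had 10 reads, all in pregnant replicate 3, and the listed CYP19A1 and SULT1E1 were not matched. In whole tissue, fewer cells of a type and less RNA per cell cannot be told apart. Control replicate 4 lay nearest to the pregnant libraries on the first principal component, at −23.3, with the other controls from −39.4 to −35.1 and the pregnant libraries from 29.0 to 36.0.

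Complement can start in 3 ways. In the classical pathway C1q, built from the chains C1QA, C1QB and C1QC, binds antibody or damaged surfaces, and C4 and C2 are then cut to form an enzyme that cuts C3. The lectin pathway reaches the same step from sugar patterns through the proteases MASP1 and MASP2, while the alternative pathway uses factor B (CFB), factor D (CFD) and properdin (CFP). Cut C3 marks a surface for uptake by receptors on leukocytes and leads on to C5, whose fragments with C6, C7, C8 and C9 make the membrane attack complex. Host cells are shielded by membrane and soluble regulators. In the uterus, complement proteins are known from epithelium, stroma and resident leukocytes.

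Most of the matched complement genes were higher in pregnant endometrium. Of 25 matched members 14 rose, 2 fell and 7 did not pass, and C8A and ITGAX had too few reads to be tested. Among all transcripts tested 21.3% passed, with 11.2% higher and 10.1% lower. The groups did not overlap for 13 members that were higher and 2 that were lower, and among all transcripts for 26.1%. The median log2 change was 1.42 over the 23 tested members and −0.02 over all transcripts tested. C2, CFB and C6 had the largest rises by log2 change, and C7 and VSIG4 were the members that fell.

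**Figure D1:**
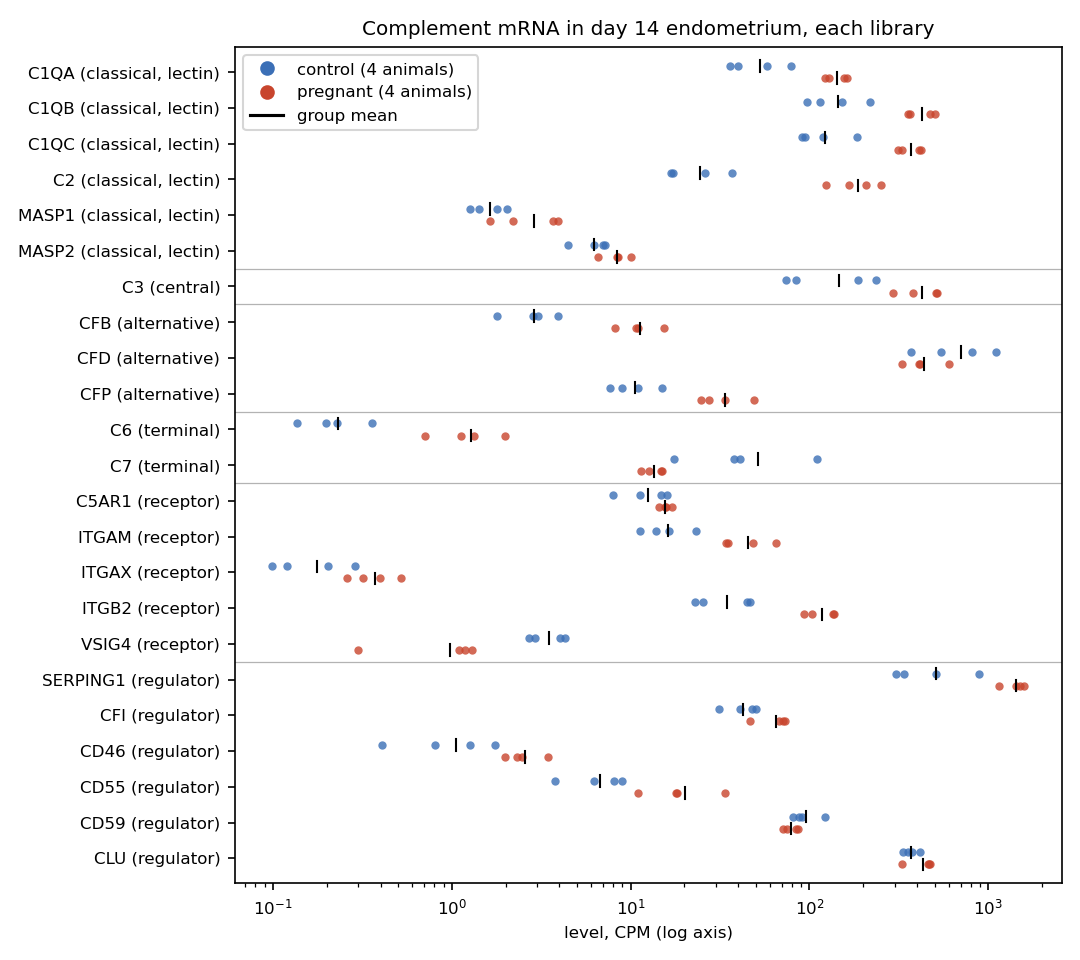
Levels in CPM (log axis) of the 23 members with reads in every library, with 1 point per library, 4 control and 4 pregnant animals, and a black bar at each group mean. Pregnant points lie to the right of all control points for C1QA, C1QB, C1QC, C2, C3, CFB, CFP and SERPING1 among others, and to the left for C7 and VSIG4. C5 and C8A are not drawn, because at least 1 library had no reads.

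The C1q chains rose together. C1QA was at 78.5, 36.1, 39.7 and 58.1 CPM in control replicates 1 to 4 and at 122, 161, 156 and 129 CPM in pregnant replicates 1 to 4. Its log2 change was 1.42 ± 0.23 (adjusted p = 0.00158 by edgeR). C1QB stood at 218, 96.4, 114 and 153 CPM in controls and 357, 469, 505 and 363 CPM in pregnant animals, a log2 change of 1.54 ± 0.24 (edgeR, adjusted p = 0.00123). All 4 pregnant libraries lay above all 4 controls for both chains, and control replicate 1 was the highest control. C1QC showed 185, 90.5, 94.6 and 118 CPM in controls and 313, 408, 421 and 329 CPM in pregnant animals, with a log2 change of 1.59 ± 0.23 (adjusted p = 0.000695 by edgeR).

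The C1q genes lie side by side on chromosome 6 of Sscrofa10.2, in the order C1QA (Entrez gene 445461, 74610024 to 74612854), C1QC (445460, 74616497 to 74621231) and C1QB (100518846, 74625449 to 74629847). Gaps of 3642 and 4217 bases separate them. Since the chains join in equal numbers in the protein, their levels were set side by side per kilobase of exon. C1QB was at 2.15 to 2.35 times C1QA in controls and 2.30 to 2.64 times in pregnant animals, ranges that overlap. C1QC was at 1.49 to 1.83 times C1QA in controls and 1.85 to 1.97 times in pregnant animals, ranges that nearly touch without overlap. The lowest control ratio was that of replicate 4, with the other controls at 1.72 to 1.83. A shift in this ratio was not tested.

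C1q is known as a product of macrophages, and macrophage markers moved in the same animals. Of 9 matched markers 5 rose, 1 fell, 2 did not pass and 1 was not tested, and their summed level was 163 to 236 CPM in controls and 320.3 to 423 CPM in pregnant animals. No matched marker was at 0 in all libraries, and CD68 and CD163 were not matched. AIF1, a calcium-binding protein of activated macrophages, rose by 3.20 ± 0.26, and CSF1R, the receptor for the macrophage growth factor, by 0.85 ± 0.17 (log2 changes), while the mannose receptor gene MRC1 fell by 0.77 ± 0.22, with overlapping groups and an edgeR adjusted p of 0.0295 (0.00862 to 0.0841 over the alternatives). The summed level of the 3 C1q chains was 223 to 481 CPM in controls and 792 to 1082 CPM in pregnant animals. The log2 changes of the 8 tested markers ran from −0.77 for MRC1 to 3.20 for AIF1, with a median of 0.93. Those of the C1q chains were 1.42 to 1.59. CSF1R gave most of the marker sum, at 134 ± 30.2 CPM in controls and 242 ± 26.3 CPM in pregnant animals. Per kilobase C1QB was at 3.21 to 5.02 times CSF1R in controls and 5.28 to 7.08 times in pregnant animals, with no overlap. The part of macrophage number in the C1q result was not tested.

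**Figure D2:**
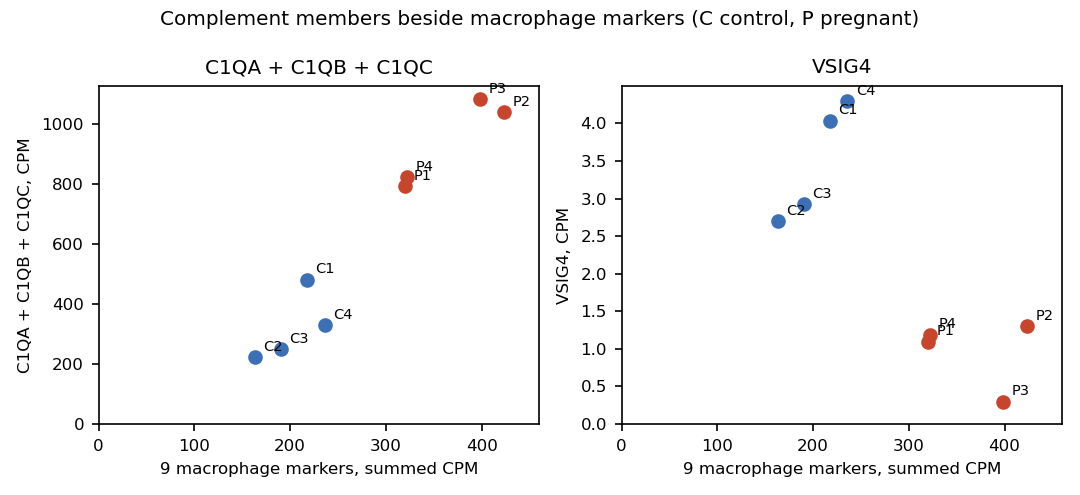
Summed CPM of 9 macrophage markers (x axis) against the summed CPM of C1QA, C1QB and C1QC (left) and the CPM of VSIG4 (right), with 1 point per library (C control, P pregnant, with replicate number). The pregnant libraries lie at 320.3 to 423 CPM of markers with 792 to 1082 CPM of C1q, but at 1.31 CPM of VSIG4 or less, below the controls at 2.70 to 4.30 CPM.

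C2, the classical pathway protease that carries the catalytic site of the C3-cutting enzyme, had the largest change among the members. Controls were at 26.0, 17.2, 16.9 and 37.1 CPM and pregnant animals at 124, 208, 251 and 166 CPM, a mean 7.69 times as high. Every pregnant library lay far above the highest control. This was a log2 change of 2.94 ± 0.30 (edgeR, adjusted p = 0.000102). On chromosome 7 it spans 27778159 to 27791676 (Entrez gene 448981). Against C1QA per kilobase, C2 was at 0.109 to 0.210 in controls and 0.334 to 0.528 in pregnant animals, with no overlap between the groups. The difference between the rises was not tested.

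The protease genes of the lectin pathway did not pass. MASP1 was at 1.63 ± 0.351 CPM in controls and 2.87 ± 1.12 CPM in pregnant animals (log2 change 0.82 ± 0.32, adjusted p = 0.0994 by edgeR), and the groups overlapped. MASP2 was at 6.24 ± 1.24 and 8.37 ± 1.44 CPM (0.42 ± 0.20, adjusted p = 0.170). MASP2 shares 72 exonic bases with TARDBP on the other strand, so some of its reads cannot be assigned.

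C3, the component on which all pathways meet, was at 84.4, 236, 74.0 and 188 CPM in controls and 293, 507, 379 and 519 CPM in pregnant animals. The controls fell into a low pair, replicates 1 and 3, and a high pair, replicates 2 and 4. Pregnant replicates 1 and 3 also lay below replicates 2 and 4, and every pregnant library lay above all controls. C3 had a log2 change of 1.54 ± 0.37 (edgeR, adjusted p = 0.0161). Its Entrez number is 397072, and it lies on chromosome 2 from 72762012 to 72820436. The deposited model of C3 shares 28 exonic bases with a gene on the other strand.

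Epithelial markers moved in the same animals. Of 6 matched 1 rose, 3 fell and 2 did not pass, none was at 0 in all libraries, and their sum was 2047 to 3060 CPM in controls and 1378 to 1927 CPM in pregnant animals, without overlap. Among the keratins, KRT8 fell by 2.10 ± 0.19, KRT18 by 1.58 ± 0.18 and KRT19 by 1.83 ± 0.30 on the log2 scale, and CLDN4, a tight junction gene, rose by 1.06 ± 0.20. Their part in the changes of C3 and the other members was not tested.

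In the alternative pathway, factor B and properdin rose and factor D did not pass. CFB, the protease of the alternative C3-cutting enzyme and a relative of C2, was at 3.02, 2.85, 1.79 and 3.95 CPM in controls and 10.8, 15.3, 11.0 and 8.18 CPM in pregnant animals, without overlap. The log2 change was 1.96 ± 0.27 (adjusted p = 0.000588 by edgeR). Entrez gene 100124383, it spans 27771677 to 27777772 of chromosome 7. CFP, properdin, which steadies that enzyme, was at 14.9, 7.64, 8.99 and 11.0 CPM in controls and 24.7, 33.5, 49.0 and 27.3 CPM in pregnant animals. This came to 1.66 ± 0.26 on the log2 scale (edgeR, adjusted p = 0.00123). The gene (Entrez 100522293) lies on chromosome X from 47326178 to 47332887.

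CFB and C2 are neighbours in the major histocompatibility region, 386 bases apart on the same strand. Both rose, and per kilobase C2 was at 5.85 to 9.15 times CFB in controls and 11.1 to 22.2 times in pregnant animals, with no overlap. C4A (Entrez gene 445467, 27729080 to 27744180), which supplies the partner of C2 in the classical enzyme and was no member, lies 27496 bases from CFB. It rose without overlap, from 1216 ± 441 CPM in controls to 3055 ± 626 CPM in pregnant animals (log2 change 1.33 ± 0.27, adjusted p = 0.00611 by edgeR).

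CFD, the protease that cuts factor B, had the highest level per kilobase of the members in controls. It was at 815, 541, 369 and 1101 CPM in controls and 603, 412, 408 and 328 CPM in pregnant animals, and the groups overlapped. This was a log2 change of −0.69 ± 0.31 (edgeR, adjusted p = 0.144). Without control replicate 3, the lowest control, CFD passed (log2 change −0.90, adjusted p = 0.0435; between 0.0435 and 0.344 across all alternatives). Per kilobase CFD was at 423 to 620.5 times CFB in controls and at 60.0 to 125 times in pregnant animals.

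**Figure D3:**
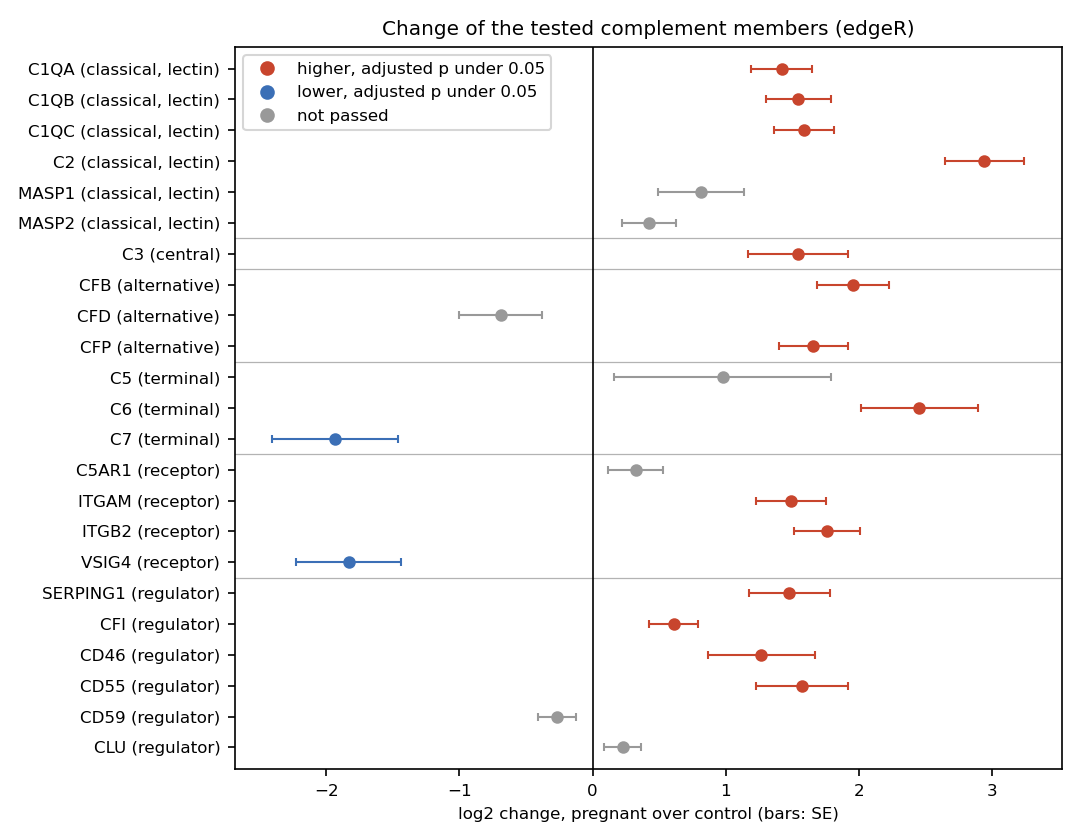
Log2 change, pregnant over control, of the 23 tested members in order of role, with bars of 1 SE. Members with an adjusted p under 0.05 are coloured: C2 lies farthest to the right at 2.94, and C7 at −1.93 and VSIG4 at −1.83 are the members coloured as lower.

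The terminal components went different ways, and most had few reads. C6, which with C7 joins C5b at the start of the membrane attack complex, was at 0.136, 0.359, 0.199 and 0.229 CPM in controls and 0.708, 1.33, 1.12 and 1.98 CPM in pregnant animals. This rests on 30 reads in controls and 170 in pregnant animals (log2 change 2.45 ± 0.44, adjusted p = 0.00272 by edgeR). On chromosome 16 it spans 27211344 to 27261840 (Entrez gene 100037952). The groups did not overlap, and the highest level was in pregnant replicate 4.

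C7 fell. Controls were at 17.6, 40.7, 37.8 and 109.7 CPM and pregnant animals at 12.7, 14.9, 11.5 and 14.8 CPM, so that the pregnant libraries lay close together and below controls that spread 6.24-fold. The log2 change was −1.93 ± 0.47 (edgeR, adjusted p = 0.0176). Its Entrez number is 397526, and it lies on chromosome 16 from 27055925 to 27111984. Without control replicate 4, which had the highest level, the log2 change was −1.25 (adjusted p = 0.00742). C6 and C7 are neighbours with 99359 bases between them, and per kilobase C6 was at 0.00217 to 0.00916 of C7 in controls and 0.0579 to 0.139 in pregnant animals.

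Summed markers of stromal and smooth muscle cells were lower in the same animals. The 7 matched stromal markers summed to 24832 to 29552 CPM in controls and 16219 to 23725 CPM in pregnant animals, with 2 higher, 1 lower and 4 not passed. The collagens carry this sum: COL3A1 was at 14899 ± 1327 CPM in controls and 9338 ± 1830 CPM in pregnant animals, and COL1A2 at 8719 ± 659 and 7450 ± 1059 CPM, which did not pass. THY1 and LUM rose by 3.16 ± 0.25 and 0.45 ± 0.13 on the log2 scale, and the median log2 change of the 7 was 0.19. The 5 matched smooth muscle markers summed to 659 to 1064 CPM in controls and 408 to 614 CPM in pregnant animals, with 3 lower and 2 not passed. Control replicate 4 had the highest sum of both lists, and no matched marker of either was at 0. Their part in the fall of C7 was not tested.

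C5, the source of the C5a fragment and of the membrane attack complex, was covered by 39 control reads and 79 reads of pregnant animals. It was at 0, 0.389, 0.664 and 0.172 CPM in controls and 0.248, 0.366, 0.397 and 1.403 CPM in pregnant animals, and did not pass (log2 change 0.98 ± 0.82, adjusted p = 0.432 by edgeR). Most of the difference in means came from pregnant replicate 4, and the log2 change was 0.15 without it. C8A, a chain of the C8 complex, had 0 reads in the 8 libraries, which allows a level of up to 0.0117 CPM over all of them, by a limit of 3 counts that covers counting error only.

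**Figure D4:**
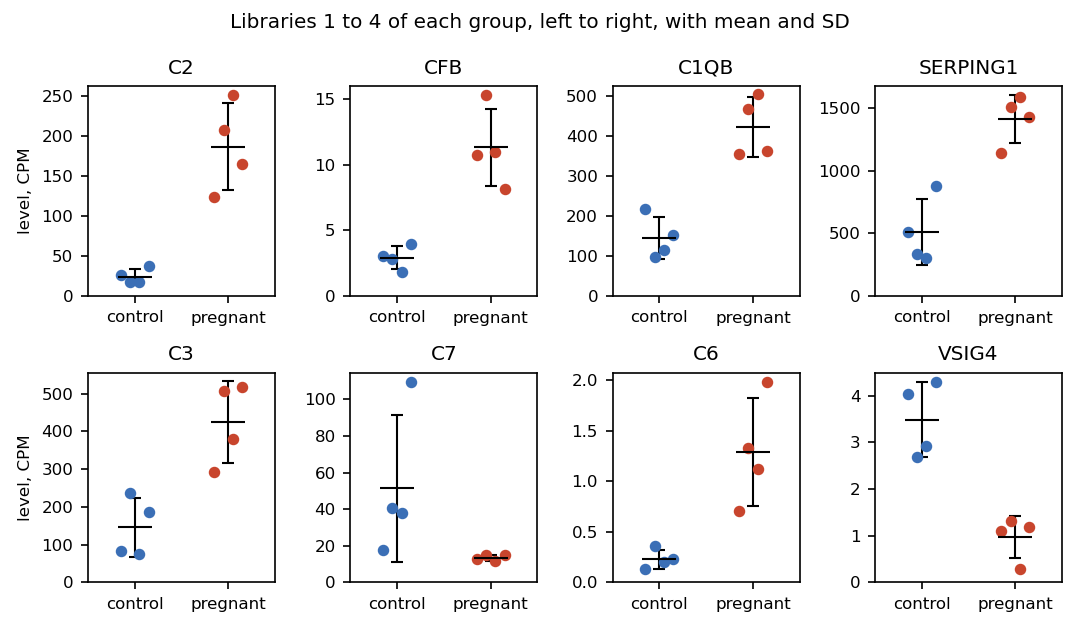
CPM of 8 members on linear axes from 0, with libraries 1 to 4 of each group from left to right and the mean with SD in black (n = 4). C2, CFB, C1QB, SERPING1, C3 and C6 lie higher in all pregnant libraries. C7 and VSIG4 lie lower, with control replicate 4 at 109.7 CPM for C7.

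Among the receptors, ITGAM and ITGB2 rose and VSIG4 fell. ITGAM and ITGB2 together form complement receptor 3, which takes up particles coated with cut C3. ITGAM was at 16.4, 11.2, 13.9 and 23.3 CPM in controls and 35.0, 48.6, 33.9 and 64.9 CPM in pregnant animals (log2 change 1.49 ± 0.26, edgeR, adjusted p = 0.00248). Entrez gene 397459, it spans 17652316 to 17668229 of chromosome 3. ITGB2, the beta chain that leukocyte integrins share, was at 44.6, 22.9, 25.3 and 46.3 CPM in controls and 92.8, 136, 138 and 104 CPM in pregnant animals (1.76 ± 0.25, adjusted p = 0.000691 by edgeR). The gene (Entrez 396943) lies on chromosome 13 from 217446054 to 217475886. Neither gene overlapped between the groups. ITGAX, the alpha chain of complement receptor 4, was covered by 23 control reads and 48 reads of pregnant animals over a short model of 512 exonic bases and was left out by the filter on low counts. Without the filter it did not pass either (log2 change 1.06 ± 0.56, edgeR, adjusted p = 0.227).

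Beta-2 integrins are carried by many leukocytes, and the marker lists of these cells differed. Of 8 T cell markers 7 rose and 1 did not pass, with summed levels of 32.0 to 78.3 CPM in controls and 105 to 176 CPM in pregnant animals. Of 6 B cell markers 4 were tested and 0 passed. They summed to 6.01 to 7.56 CPM in controls and 6.13 to 11.3 CPM in pregnant animals, ranges that overlap. Neutrophil markers were mixed. Of 8 matched, 3 S100 genes rose, MMP8 fell, 3 did not pass and MPO, a granule enzyme, had 0 reads in all libraries. The list summed to 15.96 to 19.4 CPM in controls and 141 to 514 CPM in pregnant animals, and in pregnant animals most of it came from S100A9, which was at 0.450 ± 0.190 and 308 ± 153 CPM. The part of these cell types in the integrin result was not tested.

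VSIG4 encodes a receptor of resident macrophages that binds cut C3 and checks the alternative pathway. It was at 4.04, 2.70, 2.92 and 4.30 CPM in controls and 1.10, 1.31, 0.298 and 1.19 CPM in pregnant animals. All pregnant libraries were lower, pregnant replicate 3 the most. This was a log2 change of −1.83 ± 0.39 (adjusted p = 0.00758 by edgeR). On chromosome X it spans 58745330 to 58775851 (Entrez gene 100156239). The summed macrophage markers were higher in the same animals. MRC1 was the 1 marker of that list that fell, as VSIG4 did. The 5 that rose included MERTK, with a log2 change of 1.85 ± 0.18 and no overlap between the groups. The part of these cells in the VSIG4 result was not tested. C5AR1, the receptor for the C5a fragment on myeloid cells, was at 12.5 ± 3.62 and 15.6 ± 1.07 CPM with overlapping groups (log2 change 0.32 ± 0.21, edgeR, adjusted p = 0.298).

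The C1 inhibitor rose, and in all 4 pregnant animals it had the highest level per kilobase of the regulators. SERPING1 encodes the inhibitor that binds and removes the proteases of the classical and lectin pathways. It was at 513, 339, 303 and 882 CPM in controls and 1147, 1508, 1590.4 and 1428 CPM in pregnant animals, with control replicate 4 nearest to the pregnant libraries. The log2 change was 1.48 ± 0.30 (adjusted p = 0.00602 by edgeR). Its Entrez number is 100144304, and it lies on chromosome 2 from 12957705 to 12971692. Relative to C1QA per kilobase, SERPING1 was at 3.22 to 7.47 in controls and 4.61 to 5.45 in pregnant animals, ranges that overlap.

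The membrane regulators split. CD55, which takes apart the C3-cutting enzymes, was at 3.80, 6.23, 8.07 and 8.97 CPM in controls and 11.0, 17.9, 18.1 and 33.6 CPM in pregnant animals (log2 change 1.57 ± 0.35, edgeR, adjusted p = 0.00871). Entrez gene 396743, it spans 74368905 to 74393139 of chromosome 9. All pregnant libraries were higher, replicate 4 the most. CD46, a cofactor for the cutting of C3b, was at 0.407, 0.809, 1.26 and 1.75 CPM in controls and 1.98, 2.48, 2.32 and 3.45 CPM in pregnant animals, over a model of 301 exonic bases. Its log2 change was 1.27 ± 0.40 (adjusted p = 0.0456 by edgeR). The gene (Entrez 396922) lies on chromosome 9 from 148564568 to 148568278. CD46 did not pass without any 1 library other than control replicate 4 (adjusted p = 0.0537 to 0.127 without the others).

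CD59, which blocks the last step of the membrane attack complex, was at 81.3, 122, 90.3 and 87.5 CPM in controls and 74.6, 71.5, 83.8 and 86.3 CPM in pregnant animals. The groups overlapped and the log2 difference was −0.27 ± 0.14 (edgeR, adjusted p = 0.212). CLU, clusterin, a soluble inhibitor of the same complex and a chaperone, was at 415, 373, 333 and 357 CPM in controls and 473, 464, 460.3 and 330.4 CPM in pregnant animals (0.22 ± 0.14, adjusted p = 0.293). Pregnant replicate 4 lay below all controls for CLU and the other pregnant libraries above them.

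CFI, the protease that cuts C3b and C4b for good, rose least among the members that passed. It was at 50.4, 31.2, 40.8 and 47.5 CPM in controls and 46.8, 71.3, 73.1 and 67.8 CPM in pregnant animals, and pregnant replicate 1 lay within the controls. This was a log2 change of 0.61 ± 0.18 (adjusted p = 0.0375 by edgeR). On chromosome 8 it spans 120517222 to 120554325 (Entrez gene 100516921). The CFI call was lost on leaving out control 2 or 3 or pregnant animal 2, 3 or 4 (adjusted p between 0.0791 and 0.103, between 0.0129 and 0.103 across all alternatives).

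Levels of different members were compared per kilobase of exon, which makes up for gene length but not for incomplete gene models. In all 4 controls CFD had the highest level, with 27.9% to 41.6% of the members' summed CPM per kilobase. SERPING1 took 13.7% to 21.7% and CLU 9.44% to 17.6%, and CLU lay above SERPING1 in control replicates 2 and 3. In all 4 pregnant animals SERPING1 led with 25.4% to 31.4%. C1QB took 13.1% to 15.6% and CFD 11.0% to 20.5%, and CFD lay above C1QB in pregnant replicate 1. These are shares, so a rise of some members lowers the others. By group mean C5, C6, C8A and ITGAX were the lowest in both groups, each at 0.0382% or less in every library. Single libraries could differ, as in pregnant replicate 4, where MASP1 took 0.0234%, C6 0.0308% and ITGAX 0.0382%.

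**Figure D5:**
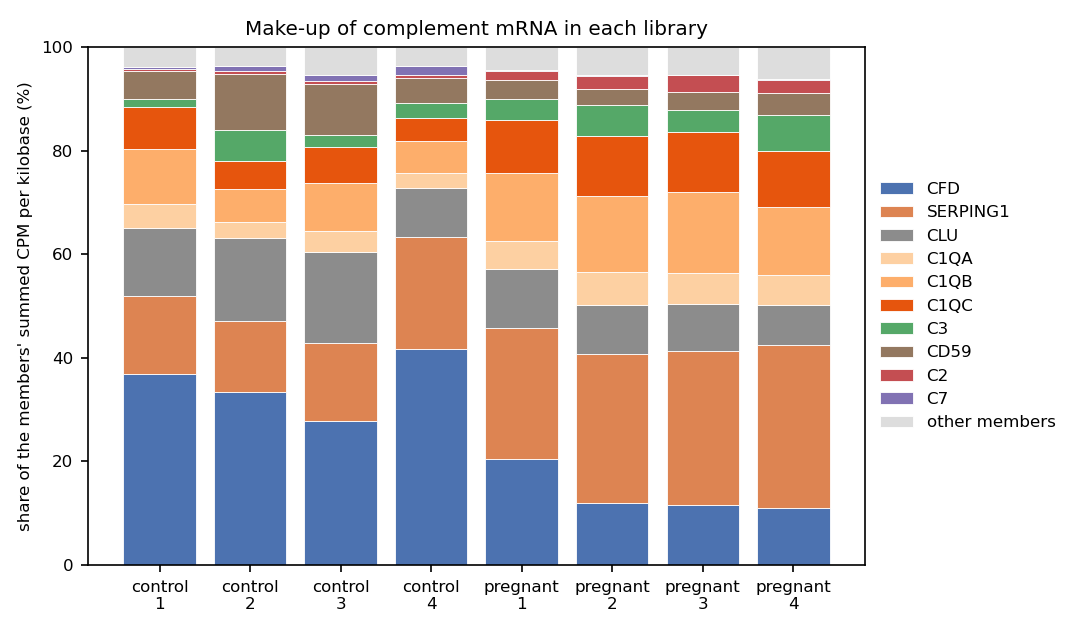
Share of each named member in the summed CPM per kilobase of exon of the 25 matched members, 1 bar per library. CFD takes 27.9% to 41.6% in controls and 11.0% to 20.5% in pregnant animals, and SERPING1 13.7% to 21.7% and 25.4% to 31.4%.

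Complement genes outside the 30 were drawn from a list of 38, of which 27 were matched and 19 could be tested. Of these 2 rose, 4 fell and 13 did not pass, a share of 31.6% called against 21.3% of all transcripts, with a median log2 change of −0.26. Besides C4A, FCN1 rose, a ficolin of myeloid cells that starts the lectin pathway, from 1.61 ± 0.794 CPM in controls to 7.11 ± 4.05 CPM in pregnant animals (log2 change 2.14 ± 0.45, edgeR, adjusted p = 0.00675). Its groups did not overlap.

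The 4 that fell were regulators. CPN1, the catalytic chain of the carboxypeptidase that blunts C3a and C5a, was at 4.41, 7.07, 6.31 and 0.344 CPM in controls and 0.0708, 0.209, 0.199 and 0.244 CPM in pregnant animals, so that control replicate 4 stood near the pregnant level. The log2 change was −4.60 ± 0.81 (adjusted p = 0.00272 by edgeR), but the call was lost in the limma voom fit (adjusted p = 0.0951, and between 1.56e-09 and 0.0951 across all alternatives). SUSD4, a membrane inhibitor of the C3-cutting enzymes, had a log2 change of −1.96 ± 0.46 (−1.23 without control replicate 4). CR1, complement receptor 1, a neighbour of CD55 at 66172 bases, fell by 1.68 ± 0.34, and VTN, vitronectin, by 1.06 ± 0.32 on the log2 scale. The VTN call was lost on leaving out control 1, 3 or 4 or pregnant animal 2, 3 or 4, with an adjusted p from edgeR between 0.0521 and 0.120.

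C5AR2 did not pass (1.02 ± 0.45, edgeR, adjusted p = 0.131), nor did FCN2 (1.28 ± 0.91, adjusted p = 0.361), but without control replicate 4 both did, with log2 changes of 1.47 and 3.38 (adjusted p = 0.0363 and 0.00263). C5AR2 and FCN2 were named after their values were seen.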

How the data were processed

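For every library the authors deposited a table of raw counts by transcript, with annotations that give exon positions. Per the submitters' processing notes, CASAVA 1.6, TopHat 1.4, Cufflinks 1.3 and DESeq were used on Sscrofa10.2. The counting tool is not given in the sources used here, and the kit does not mark strand, so reads of overlapping genes cannot be told apart. Symbols came from a RefSeq table of Sscrofa11.1 (16270 genes by Entrez ID and 103 by accession), and coordinates from the deposited annotation, counted from 1.

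The test was the quasi-likelihood test of edgeR 4.0.16 (R 4.3.3), robust, on TMM-scaled counts with group as the only term. Low transcripts were removed by filterByExpr (minimum count 10), which left 18783 of 24139. Alternatives were DESeq2 1.42.0, limma 3.58.1 voom, other scalings and filters, 1 transcript per gene, a replicate block and leaving out each library. The edgeR test, but not the other fits, was also run on simulated counts with known changes. The libraries come from 8 animals. The members and lists were chosen with earlier results of these data known. All members were named, other genes where they passed, and markers by smallest p. CSF1R, MRC1, MPO and the uterine and conceptus genes were named outside this rule, with their values known. Sequence tables were not used here. The values of 1 other complement gene are not reported here.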

Additional observations from a re-analysis of the deposited data

Results flagged for a closer look

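In each group of 4 libraries the highest and the lowest value of the 23 tested members were compared with the rest by Dixon's test. Of 46 groups 2 held a library that stood apart, and chance sets apart about 1 in 20 groups. For C5, pregnant replicate 4 was at 1.403 CPM and the other pregnant libraries at 0.248 to 0.397 CPM. For CLU, pregnant replicate 4 was at 330.4 CPM and the other pregnant libraries at 460.3 to 473 CPM.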

How the results depend on the processing

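Over 16 alternatives, 14 of the 16 members called passed in every fit in which they were tested (C6 could not be tested with a minimum count of 50), and the other 2 were CFI and CD46. No tested member changed sign. With library totals in place of TMM the median of all transcripts shifted by −0.13, and 12 members were higher and 2 lower. Over all transcripts that scaling gave 1661 higher and 3284 lower against 2111 and 1898, and 33.6% of calls were higher against 52.7%. CFI and CD46 did not pass with it (adjusted p = 0.0593 and 0.0759), nor CD46 with upper quartile scaling (0.0517), and the cause was not tested. Leaving out 1 library gave 12 to 14 higher members and 2 to 3 lower (3 without control replicate 3, where CFD passed), 1265 to 2017 lower transcripts, the lowest without pregnant replicate 2, and 2 to 4 higher among the other complement genes, the highest without control replicate 4. The labels state no pairing of animals by replicate number. Deviations from the group means correlated at 0.23, −0.15, −0.02 and 0.09 between libraries of the same number, which cannot decide whether such libraries were paired. With the replicate block 15 members passed, without CFI (adjusted p = 0.0732), and 2070 transcripts were higher and 1813 lower. C3 had a log2 change of 1.68 ± 0.20 with the block (edgeR, adjusted p = 0.00168). Using the lowest transcript per gene changes nothing, as each member has 1. Depth limits C5, C6, C8A and ITGAX.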
